A study of Mus musculus with 20 samples.

Results

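Poorly differentiated is a histological grade, a name for squamous tumors in which few cells keep the layered, hardening pattern of epidermis. The poorly differentiated carcinomas of the mouse skin made up 6 of the 15 tumors of the series. With the 5 samples of normal skin they were 11 of the 20 arrays, and they were chosen by the histological subtype that the labels give. The spindle cell, undifferentiated and mixed carcinomas, 9 tumors in all, did not enter the comparison with skin. Skin came from wild type FVB mice of 2 months, and the tumors from FVB mice that carry K14Cre, a Cre recombinase driven by the keratin 14 promoter in stratified epithelia such as epidermis. In 2 of the tumors, called Trp53ΔEC tumors 4 and 6, Cre had removed loxP-flanked Trp53. In the other 4, RbΔEC; Trp53ΔEC tumors 2, 6, 7 and 8, it had removed Trp53 and Rb together. The labels call the skin control, its wild type genotype is given by the methods of the study, and no age is given for the tumors, so that tumor, alleles and age cannot be told apart. Each array measured biotin-labelled total RNA of a whole piece of tissue on the Affymetrix MOE430 2.0 chip, and the deposited values are log2 signals after RMA, a method that corrects background, normalizes arrays to each other and summarises the probes of a probeset. A value of 1 more on this scale is a doubling of signal. Nothing in the labels says that each tumor came from another mouse, and every p-value here refers to the variation among the samples as given.

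Squamous carcinomas arise from keratinocytes, the cells that build the epidermis. Basal keratinocytes divide and make keratins 5 and 14, cells that leave the basal layer switch to keratins 1 and 10, and at the surface a cornified envelope of cross-linked proteins such as loricrin and the Sprr and Lce proteins forms under the cell membrane. After wounding, keratinocytes turn on another set of keratins, 6, 16 and 17, with antimicrobial proteins and chemokines that draw neutrophils. Rb holds back E2F transcription factors, which drive genes of DNA replication, and p53 acts on arrest, repair and death genes after damage.

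Of 18193 genes tested, 3855 were higher in the poorly differentiated carcinomas than in skin (21.2% of the genes) and 4004 were lower (22.0%) in limma's moderated test at a Benjamini-Hochberg adjusted p below 0.05. All 6 tumors lay above all 5 skin samples for 2596 genes, which is 14.3%, and below them for 2624 genes, which is 14.4%. At least a doubling was found for 1484 of the higher genes, and at least a halving for 1723 of the lower ones. A change of 16-fold or more was found for 55 genes upward and 147 downward. The median log2 difference over all genes was 0.00. When each array was centred on its own median this median moved by -0.11, and the share of calls that were higher went from 49.1% to 37.6%, with 3043 genes higher and 5042 lower. Correlation distance, which is 1 minus Pearson's r over all genes, ran from 0.0059 to 0.0186 between skin samples, from 0.0189 to 0.0710 between poorly differentiated tumors and from 0.0961 to 0.138 between a tumor and a skin sample. The 3′ to 5′ signal difference of the Actb control probesets, a sign of RNA breakdown, was 0.72 ± 0.28 (SD, n = 5) in skin and 0.60 ± 0.19 (SD, n = 6) in tumors (two-sided exact permutation p = 0.439 over 462 regroupings). That of the Gapdh control probesets was 0.39 ± 0.29 (SD, n = 5) in skin and 0.16 ± 0.16 (SD, n = 6) in tumors, a difference of -0.23 (two-sided exact permutation p = 0.117).

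Rb1, the gene removed in 4 of the tumors, read 8.95, 9.10, 9.26, 8.95 and 9.13 in normal skin 1 to 5. It read 8.84 and 8.33 in Trp53ΔEC tumors 4 and 6, and 7.53, 7.15, 7.27 and 6.88 in RbΔEC; Trp53ΔEC tumors 2, 6, 7 and 8. The 4 tumors without Rb were thus the 4 lowest samples, in the direction of their labels. The chip reads whole tissue, where cells without Cre keep the gene, and the place of the probes relative to the deleted exons was not analysed here. Over all 6 tumors Rb1 was lower than in skin (log2 difference -1.41 ± 0.31 SE, limma adjusted p = 0.00337), and with only the Trp53ΔEC tumors the difference was -0.49 and no longer passed. These values are of the brighter of 2 Rb1 probesets, and only 1 of the 2 was called lower in the tumors. Trp53 was not analysed here. Of its relatives, Trp63, which marks basal keratinocytes, was 0.79 ± 0.14 SE higher (limma adjusted p = 0.000643) and Trp73 was 1.57 ± 0.22 SE higher (limma adjusted p = 0.000139), each with all 6 tumors above all skin samples. Mdm2, which targets p53 for breakdown, was 0.59 higher with overlapping groups (limma adjusted p = 0.0145), while Mdm4 differed by 0.04 (limma adjusted p = 0.896). That value is of the brightest Mdm4 probeset, and 2 of the 4 Mdm4 probesets were called higher in the tumors.

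The 10 largest rises among genes whose groups did not overlap were the wound keratin Krt6b, the calcium-binding antimicrobial proteins S100a8 and S100a9, the envelope proteins Sprr1b, Sprr2d and Lce3f, the collagenase Mmp13, the defensin Defb3 and the neutrophil chemokines Cxcl2 and Cxcl3. The 10 largest falls were 8 genes of skeletal muscle (Myh4, Tnnt3, Tnnc2, Myh1, Pvalb, Mybpc2, Atp2a1 and Myl1) and 2 that are strong in fat, the hormone gene Adipoq and the carbonic anhydrase gene Car3. Krt6b, a keratin of wounded and fast-growing epidermis, read 4.88, 5.09, 4.72, 5.43 and 5.11 in normal skin 1 to 5, and 13.57, 14.37 and 14.50 at the lowest, the median and the highest of the tumors. The groups lay far apart, by 9.22 ± 0.18 SE (limma adjusted p = 8.36e-11). Myh4, the myosin heavy chain of fast muscle, read 13.04, 14.01, 13.52, 13.49 and 14.11 in skin, and 3.59, 4.34 and 6.91 in the tumors, a difference of -8.91 ± 0.52 SE (limma adjusted p = 1.88e-07). The values carry no detection call, and the low side of such differences, like Krt6b in skin or Myh4 in tumors, lay mostly below the array medians of 5.58 to 5.63 in skin and 5.68 to 5.75 in tumors. Whether a probe is above background there was not tested, so these log2 differences are differences of signal and may understate the change in RNA.

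**Figure D1:**
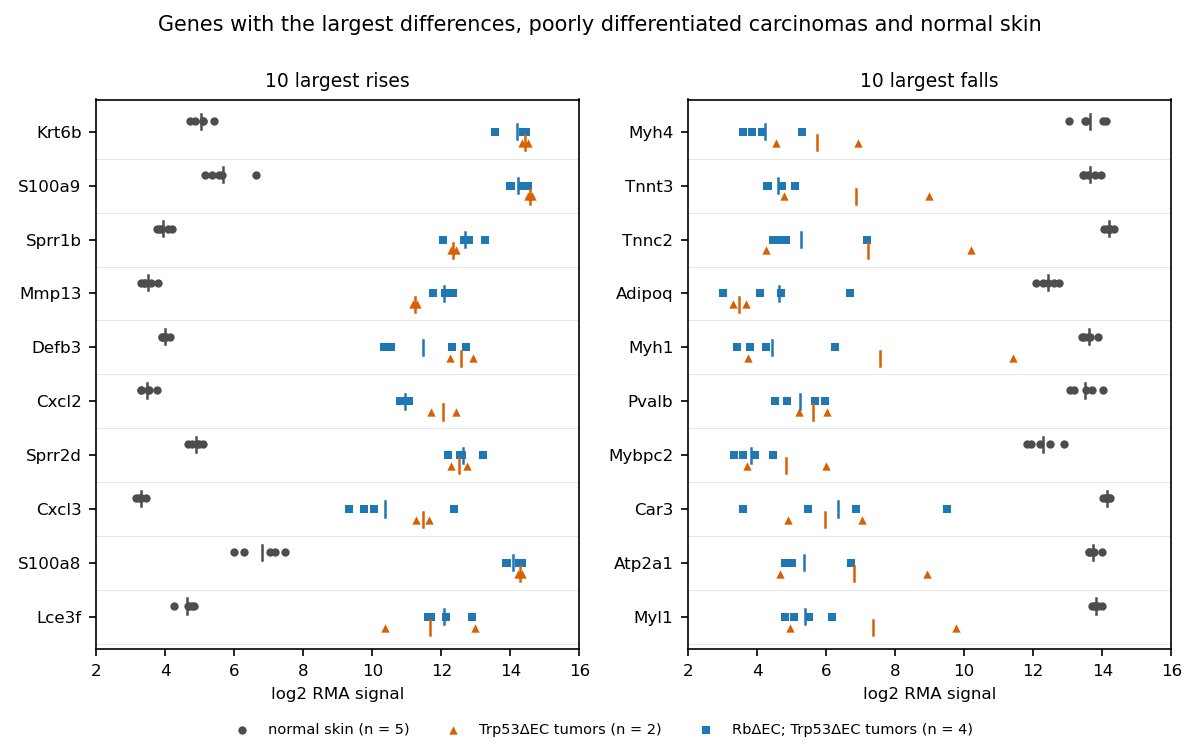
The log2 RMA signal (x axis) of the 10 genes with the largest rises (left) and the 10 with the largest falls (right), with 1 point per sample and a short vertical line at the mean of each of the 3 groups. Krt6b rises from skin values of 4.72 to 5.43 to tumor values of 13.57 to 14.50, and for most of the falling muscle genes Trp53ΔEC tumor 4 (the right-hand orange triangle, 11.40 for Myh1) lies apart from the other tumors.

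Genes of cell division rose together. Of 35 measured genes of mitosis and chromosome segregation, 34 were higher and none lower, with a median difference of 2.35 against 0.00 over all genes. Of 32 genes of DNA replication, 31 were higher and none lower, with a median of 2.03. The list mean of the mitosis genes ran from 6.53 to 6.79 in skin and from 8.45 to 9.77 in tumors, so no tumor came near the skin range, and RbΔEC; Trp53ΔEC tumor 2 was the highest. Pttg1, the securin gene, did not pass among the mitosis genes (-0.08, limma adjusted p = 0.766), nor did Pold1 among the replication genes. Bub1, a kinase of the spindle checkpoint, read 4.66, 4.39, 4.42, 5.06 and 5.14 in skin and 8.17, 8.80 and 9.52 at the lowest, the median and the highest tumor (4.08 ± 0.23 SE, limma adjusted p = 1.43e-07). Cep55, which acts in the final cut between daughter cells, rose by 3.95, and Cdc20, the activator of the anaphase-promoting complex, by 3.18. Birc5, which encodes survivin, rose by 3.15 and Aurka, the centrosome kinase, by 3.09. The replication genes that rose most were Cdc6 (3.09) and Cdt1 (2.94), both of which load the MCM helicase, Dbf4, the partner of the Cdc7 kinase, and the helicase subunit gene Mcm5 (2.96), all with every tumor above every skin sample. A list of 20 cell cycle genes that the study itself named as a signature, partly chosen on these samples and so no independent evidence of their direction, was higher in 20 of 20. Several of the 20, Bub1, Cdc20, Birc5, Aurka and Cdk1 among them, are also in the mitosis list. Mcm4 is also in the replication list and Chek1 in that of repair, and the same limit holds for these shared members.

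Promoter sequence is shown for 4 of these genes because many of the mitosis and replication genes share short motifs near their starts. The windows were RefSeq promoters of build GRCm38.p6, 250 bases before to 50 after a start, searched on both strands. The cell cycle homology region motif, CHR, written as TTTGAA or TTCGAA, stood in 81.8% of 33 windows of 30 mitosis genes and in 19.2% of all 32851 windows. An E2F motif, written as TTTCCCGC, TTTGGCGC, TTTCGCGC or TTTGCCGC, stood in 37.5% of 32 windows of 27 replication genes, in 3.03% of the mitosis windows and in 2.26% of all windows. CCAAT, the box bound by NF-Y, stood in 69.7% of the mitosis windows and 37.4% of all windows. A match is a description of letters and shows no binding. The 120 bases before the start are given 5′ to 3′ on the strand of the gene, with CHR matches in capitals for Cdc20 (chr4:118437344-118437463, minus strand), Cdk1 (chr10:69352913-69353032, minus strand) and Kif11 (chr19:37376262-37376381, plus strand), and E2F matches in capitals for Mcm6 (chr1:128359706-128359825, minus strand). The CHR match of Cdc20 begins 18 bases before the start, that of Kif11 19 bases before it, and Cdk1 holds 2.
Cdc20: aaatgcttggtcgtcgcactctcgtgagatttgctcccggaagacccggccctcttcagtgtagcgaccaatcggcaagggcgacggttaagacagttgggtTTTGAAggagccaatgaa
Cdk1: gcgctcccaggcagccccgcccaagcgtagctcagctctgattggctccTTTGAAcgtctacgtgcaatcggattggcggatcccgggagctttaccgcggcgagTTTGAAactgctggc
Kif11: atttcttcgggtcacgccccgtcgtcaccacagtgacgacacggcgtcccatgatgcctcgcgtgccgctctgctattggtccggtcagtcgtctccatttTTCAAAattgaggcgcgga
Mcm6: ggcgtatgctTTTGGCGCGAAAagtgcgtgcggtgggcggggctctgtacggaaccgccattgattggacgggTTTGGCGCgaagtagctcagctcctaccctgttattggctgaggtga
Cdk1, the kinase that starts mitosis, read 6.74, 6.73, 6.60, 7.20 and 6.96 in skin and 9.06, 9.52 and 10.46 in the tumors (2.75 ± 0.25 SE, limma adjusted p = 5.38e-06). Kif11, the motor that separates spindle poles, rose by 2.13 (limma adjusted p = 3.92e-05). Mcm6, a subunit of the replicative helicase, rose less, by 1.18 (limma adjusted p = 0.0068), and its groups overlapped because Trp53ΔEC tumor 4, at 9.24, lay below the 9.36 of normal skin 2.

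Among 32 genes of the G1 phase, the Rb family and E2F, 20 were higher and 5 lower (Rb1, Cdkn1c, Cdkn2c, E2f6 and Rbl2), with a median of 0.65. Cdkn2a, which encodes the inhibitors p16 and p19ARF, read 4.01, 4.19, 4.23, 4.19 and 4.29 in skin. It read 6.25 and 6.13 in the Trp53ΔEC tumors and 8.96, 7.27, 8.97 and 9.29 in the RbΔEC; Trp53ΔEC tumors, so all tumors lay above skin (3.63 ± 0.58 SE, limma adjusted p = 0.000397) and the tumors without Rb were the highest. The repressor genes E2f7 and E2f8 rose by 3.28 and 2.58, Ccne2, a cyclin of S phase entry, by 3.03, and Mybl2 by 2.54. Rbl1, a relative of Rb, rose by 1.82, whereas Rbl2 fell by 0.65. Of 24 genes of repair and the damage checkpoint, 20 were higher (median 1.48), led by the checkpoint kinase Chek1 at 3.02, Rad51ap1 at 2.86 and the helicase Blm at 2.42. Parp1 was the only lower member (-0.40, limma adjusted p = 0.0271), and its call was lost in several fits without a sample, those without normal skin 1 or RbΔEC; Trp53ΔEC tumor 2 among them.

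Known p53 targets moved both ways, with 9 of 27 higher, 8 lower and a median of 0.04. Genes as a whole also moved both ways, with 21.2% higher and 22.0% lower. Pmaip1, the death gene Noxa, read 5.87, 5.94, 6.45, 6.13 and 6.08 in skin and 8.83, 9.34 and 10.04 in tumors (3.30 ± 0.21 SE, limma adjusted p = 3.78e-07). Plk2 rose by 1.89 and Gadd45a by 1.57. On the other side, Ccng1, a cyclin gene that p53 activates, read 11.42, 11.68, 11.57, 11.31 and 11.73 in skin and 9.13, 9.69 and 9.98 in tumors (-1.90 ± 0.16 SE, limma adjusted p = 3.69e-06). Eda2r fell by 1.85 and Sesn1 by 1.74. Cdkn1a, the p21 gene, overlapped between the groups and differed by 0.23 (limma adjusted p = 0.559), with 10.53 and 10.60 in the Trp53ΔEC tumors, 11.35 to 12.16 in the RbΔEC; Trp53ΔEC tumors and 11.04 to 11.21 in skin.

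The markers of basal epidermis were present in every tumor. Of 15 genes of basal keratinocytes and hemidesmosomes, 9 were higher and 3 lower (Krt15, Dst and Plec), with a median of 0.75. Krt5 read 13.33, 13.34, 13.20, 13.55 and 13.25 in skin and 13.60, 13.80 and 14.10 in the tumors, a small but separate rise of 0.52 ± 0.12 SE (limma adjusted p = 0.0036), and Krt14 rose by 1.08. The laminin gene Lama3 rose by 2.16, although another of its 2 probesets was lower, the placental cadherin gene Cdh3 by 1.53 and the integrin gene Itga3 by 1.48. Krt15, the member that fell most, marks resting basal cells and the hair follicle bulge. It read 13.76, 13.78, 13.62, 13.97 and 13.63 in skin and 6.61, 7.87 and 11.29 in the tumors (-5.33 ± 0.73 SE, limma adjusted p = 0.00014). Of 15 genes of hair follicle stem cells, 8 were lower and none higher, with differences of -3.19 for Lhx2, -2.57 for Cd34 and -2.46 for Fgf18, while Sox9 overlapped (-0.39, limma adjusted p = 0.506).

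Suprabasal differentiation was unequal from gene to gene and from tumor to tumor. Of its 21 genes, 5 were higher (Tgm3, Rptn, Cnfn, Tgm1 and Casp14), 4 lower (Krt77, Lor, Krt10 and Sbsn) and 12 did not pass (median -0.12). Both counts are near the shares over all genes, 21.2% higher and 22.0% lower. The call of Rptn (2.43) was lost without any of 9 samples, Trp53ΔEC tumor 4 among them, and without normal skin 2 or without normal skin 3 only 3 were higher. Krt10 read 14.05, 13.90, 13.96, 14.05 and 13.86 in skin and 8.72, 12.12 and 13.15 in the tumors (-2.22 ± 0.68 SE, limma adjusted p = 0.0201). Krt1, its partner, read 12.62 to 13.24 in 5 tumors, above most of the skin values of 12.20 to 12.81, and 6.84 in RbΔEC; Trp53ΔEC tumor 7, so that no difference passed (limma adjusted p = 0.624). Lor, the loricrin gene, fell by 2.41, again with its lowest value, 7.03, in RbΔEC; Trp53ΔEC tumor 7. Krt77, a keratin of sweat ducts and adult epidermis, was the largest fall of the list, from 13.77 to 13.87 in skin to 4.88, 6.04 and 9.99 in the tumors (-7.27 ± 0.76 SE, limma adjusted p = 1.81e-05). Tgm1 and Tgm3, transglutaminases that cross-link the envelope, rose by 1.74 and 2.84. The groups overlapped for Tgm3, since RbΔEC; Trp53ΔEC tumor 7, at 5.87, lay within the skin range of 5.83 to 6.49. Flg and Ivl, for filaggrin and involucrin, overlapped and did not pass (0.72 and -0.31).

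The cornified envelope families split by subfamily. Of 23 measured Sprr and Lce genes, 12 were higher and 6 lower (median 1.40). Every measured Lce3 gene (Lce3a, Lce3b, Lce3c and Lce3f) and every measured Sprr2 gene (Sprr2d, Sprr2f, Sprr2h, Sprr2i and Sprr2k) was higher, whereas all 6 lower genes were Lce1 genes (Lce1a1, Lce1a2, Lce1b, Lce1c, Lce1l and Lce1m), and Lce1g alone of that subfamily was higher, by 0.60. Members of a subfamily are close in sequence and can share probes. Sprr1b read 4.21, 4.08, 3.87, 3.75 and 3.82 in skin and 12.06, 12.53 and 13.26 in the tumors (8.63 ± 0.19 SE, limma adjusted p = 1e-10). Lce3f read 4.68, 4.83, 4.26, 4.65 and 4.77 in skin and 10.36, 11.92 and 12.99 in the tumors (7.31 ± 0.40 SE, limma adjusted p = 1.31e-07). Lce1m went the opposite way, from 11.64, 11.77, 11.62, 11.52 and 11.48 in skin to 3.70, 4.60 and 6.55 in the tumors (-6.88 ± 0.41 SE, limma adjusted p = 2.29e-07). Neither gene had a tumor within the skin range.

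**Figure D2:**
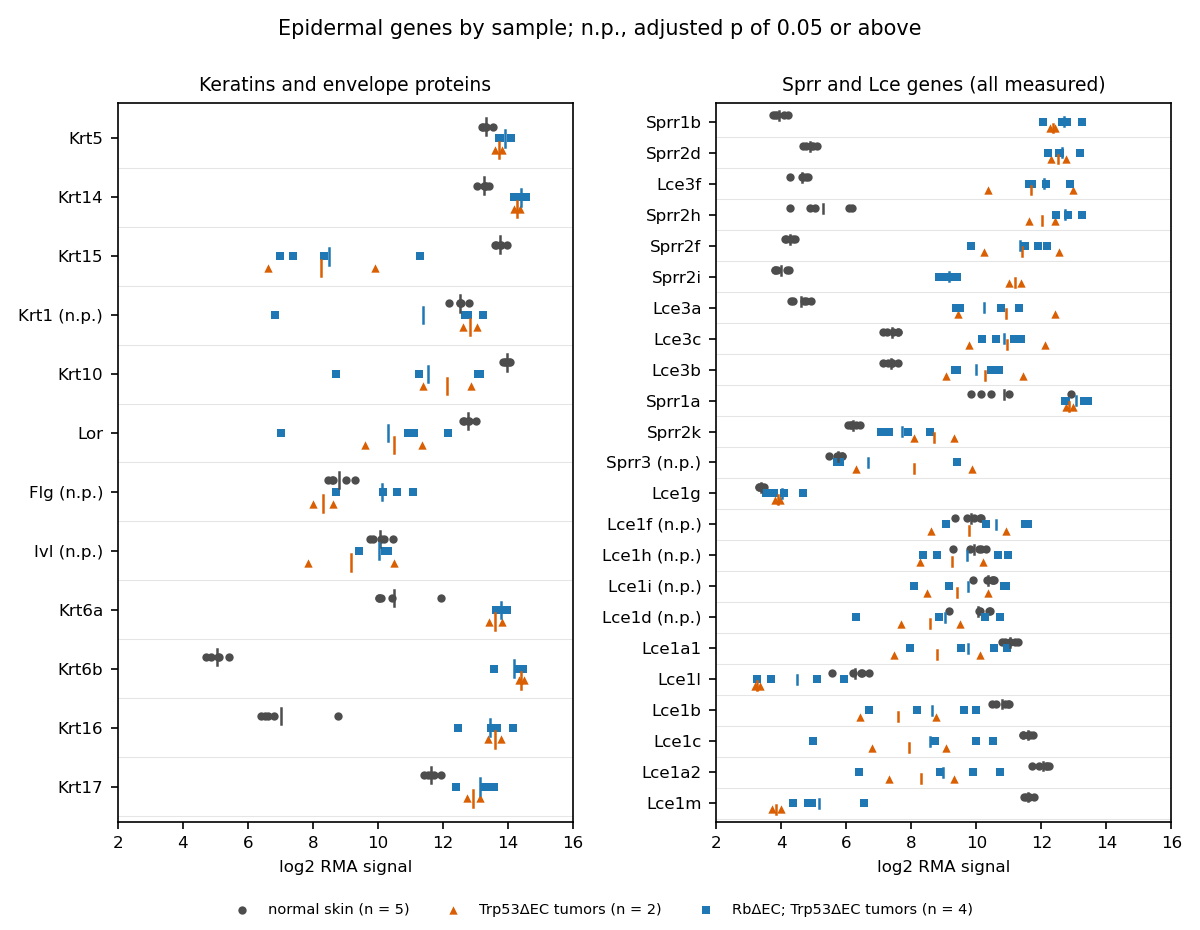
The log2 RMA signal (x axis) of keratin and envelope genes (left) and of all 23 measured Sprr and Lce genes in the order of their difference (right), with 1 point per sample and a short vertical line at the group mean. The Sprr2 and Lce3 genes lie to the right of skin in the tumors and Lce1m to the left, and RbΔEC; Trp53ΔEC tumor 7 holds the low points of Krt1 (6.84), Krt10 (8.72) and Lor (7.03).

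Wound keratins and antimicrobial proteins formed the list with the largest median. Of 15 genes, 14 were higher and none lower, with a median of 5.93, and in all 15 every tumor lay above every skin sample. The list mean was 6.61 to 6.99 in skin and 11.40 to 12.34 in tumors. Krt16 read 6.62, 6.54, 6.42, 8.78 and 6.81 in skin and 12.46, 13.59 and 14.15 in the tumors (6.46 ± 0.42 SE, limma adjusted p = 4.47e-07), and normal skin 4, the highest skin sample, also had the highest skin values of Krt6a and Krt6b. S100a9, which pairs with S100a8 in calprotectin, rose by 8.67, and S100a8 by 7.36. Both are made by stressed keratinocytes and by neutrophils, so their source in whole tissue was not tested. Defb3 rose by 7.85, Stfa3, a cysteine protease inhibitor, by 7.13, the iron-trapping Lcn2 by 6.34 and the protease inhibitor Slpi by 5.93. Defb4 did not pass: it read 8.43 and 6.71 in the Trp53ΔEC tumors and 3.60 to 3.87 in the others, against 3.03 to 3.49 in skin.

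Cytokines and chemokines rose with them. Of 28 genes, 22 were higher and none lower (median 2.52). Cxcl2, which attracts neutrophils, read 3.51, 3.52, 3.75, 3.31 and 3.29 in skin and 10.81, 11.07 and 12.41 in the tumors (7.84 ± 0.27 SE, limma adjusted p = 4.15e-09). Cxcl3 rose by 7.44 and Cxcl1 by 4.72, while Cxcl5 rose by 5.97 with a wide spread, from 4.69 in RbΔEC; Trp53ΔEC tumor 8 to 11.04 in Trp53ΔEC tumor 4. Ptgs2, the inducible cyclooxygenase, read 5.79, 3.90, 4.92, 4.22 and 4.53 in skin and 8.64, 11.03 and 11.93 in the tumors (6.03 ± 0.54 SE, limma adjusted p = 5.17e-06). Among interleukins, Il6 rose by 4.94, Il1b by 4.80, Il1f6 by 4.73 and Il24 by 4.40. Csf3, the growth factor of neutrophils, rose by 2.95. Cxcl9, Cxcl10, Ccl7, Ccl27a, Cxcl14 and Il33 did not pass. Interferon-response genes did not rise: of 15, none was higher and 4 were lower (Ifit3, Bst2, Usp18 and Irf9), of which Irf9 (-0.47) was lost without any of 6 samples, normal skin 3 and Trp53ΔEC tumor 6 among them. A lower count of 4 of 15 is near the 22.0% of all genes that were lower. In the interferon list RbΔEC; Trp53ΔEC tumor 2 held the highest tumor values of Ifit3 (7.97) and Usp18 (8.02).

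The promoters of Cxcl1, Cxcl2 and Cxcl3, neighbours on chromosome 5, are shown because these chemokines rose together and each holds the NF-kB motif, written as GGGA and TTCC with any 2 bases between, which stood in 20.8% of 24 windows of 19 cytokine genes and in 1.47% of all windows. Those of the protease genes Mmp13 and Mmp10 are shown for the AP-1 motif TGANTCA, found in 8 of 16 windows of 13 protease genes and in 7.81% of all windows. The 120 bases before the start are given as above, with these motifs in capitals, from chr5:90891125-90891244, chr5:90903779-90903898, chr5:90785981-90786100, chr9:7272394-7272513 and chr9:7502222-7502341, all on the plus strand. In Cxcl1, Cxcl2 and Cxcl3 the capitals are 2 overlapping matches, which begin 71, 97 and 73 bases before the start.
Cxcl1: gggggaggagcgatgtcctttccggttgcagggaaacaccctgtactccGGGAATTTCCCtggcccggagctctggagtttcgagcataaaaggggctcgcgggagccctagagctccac
Cxcl2: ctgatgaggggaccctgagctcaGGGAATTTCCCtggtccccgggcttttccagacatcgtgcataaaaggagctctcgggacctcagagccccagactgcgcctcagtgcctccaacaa
Cxcl3: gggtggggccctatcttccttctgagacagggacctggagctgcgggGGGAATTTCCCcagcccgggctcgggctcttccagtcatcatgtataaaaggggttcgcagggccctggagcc
Mmp13: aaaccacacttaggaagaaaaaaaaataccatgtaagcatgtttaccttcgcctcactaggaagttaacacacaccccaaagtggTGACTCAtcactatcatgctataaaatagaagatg
Mmp10: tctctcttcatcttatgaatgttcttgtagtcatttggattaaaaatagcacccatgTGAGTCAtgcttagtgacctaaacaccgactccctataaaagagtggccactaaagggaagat
Mmp13, a collagenase of wound edges and invasive fronts, read 3.40, 3.30, 3.42, 3.58 and 3.80 in skin and 11.18, 11.92 and 12.33 in the tumors (8.30 ± 0.21 SE, limma adjusted p = 3.75e-10). Mmp12, the macrophage elastase, rose by 5.38, and Mmp10 by 4.18 from 4.65 to 5.22 in skin to 7.98, 9.31 and 9.78 in the tumors. Of the 17 matrix proteases, plasminogen system genes and inhibitors, 8 were higher and 2 lower (median 0.79), and 4 were lower without RbΔEC; Trp53ΔEC tumor 2. The inhibitors parted, with differences of 3.28 for Timp1, -2.85 for Timp3 and -2.62 for Timp2. Mmp3 (1.27) and Mmp2 (-1.05) did not pass.

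Genes of muscle, fat and dermis were lower. In whole tissue, fewer cells of a type and less RNA per cell cannot be told apart. Of 39 skeletal muscle genes, 35 were lower and none higher, with a median of -6.87. The list mean was 10.98 to 11.72 in skin, 7.47 in Trp53ΔEC tumor 4 and 4.86 to 5.41 in the other 5 tumors, so the first of these held an intermediate level of muscle RNA. Myh1, a fast myosin, read 11.40 in that tumor and 3.43 to 6.27 in the others, against 13.42 to 13.88 in skin (-8.12 ± 1.22 SE, limma adjusted p = 0.000269). Of 20 adipocyte genes, 18 were lower (median -2.80), with Adipoq, the fat hormone adiponectin, at 12.08 to 12.76 in skin and 3.03, 3.89 and 6.69 in the tumors (-8.18 ± 0.54 SE, limma adjusted p = 4.97e-07). Cidec, a lipid droplet protein, fell by 5.43. Of 15 dermal fibroblast genes, 13 were lower (median -2.46), and the list mean ran from 7.27 in RbΔEC; Trp53ΔEC tumor 8 to 10.62 in Trp53ΔEC tumor 4, below the skin range of 11.65 to 11.86 in every tumor. Ogn fell by 5.26, Dpt by 4.19 and Apod by 3.91, all 3 of them secreted proteins of the dermis.

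Lists of other resident cell types held lower members too. Of 19 endothelial genes, 11 were lower and 1 higher (median -0.77), with Lyve1 of lymphatic vessels at -2.58 and the clotting factor gene Vwf at -1.81, and the higher member, Flt1 (0.58), lost its call without any of 7 of the 11 samples, normal skin 2 among them. Of 8 melanocyte genes 5 were lower, (Dct, Mlana, Pmel, Mitf and Tyrp1), led by Dct at -3.17, and of 6 Schwann cell genes 4 were lower (Pmp22, S100b, Sox10 and Mbp), led by Pmp22 at -3.10. Of these Mbp (-0.74) lost its call without any of 8 samples, normal skin 1 among them, and its difference was 0.78 when probesets that may cross-hybridize were left out. Of 8 sebaceous gland genes, Scd3 and Scd1 were lower, by 3.02 and 1.95, although Scd1 did not pass as the mean of its probesets. The other 6 did not pass, and 2 of 8 is near the 22.0% of all genes that were lower. Within the reactive stroma list of 16 genes, 5 were higher (Tnc, Inhba, Col12a1, Thbs1 and Postn), 2 lower (Fap and Sparc) and 9 did not pass (median -0.39). Over all genes 21.2% were higher and 22.0% lower. The list mean ran from 8.78 to 10.82 in tumors and from 9.99 to 10.44 in skin, so the list as a whole was not raised. Without Trp53ΔEC tumor 4 or without RbΔEC; Trp53ΔEC tumor 2 the lower count was 4. Tnc, a matrix protein of wounds and tumors, read 5.60, 6.93, 7.31, 8.32 and 7.33 in skin and 9.44, 11.70 and 11.96 in the tumors (4.11 ± 0.54 SE, limma adjusted p = 9.33e-05). Inhba rose by 2.45 and Col12a1 by 2.31, whereas Fap fell by 2.12.

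Among 12 factors and markers of epithelial to mesenchymal transition, 8 were lower and 1 was higher (median -1.17). The higher member was Snai2, the transcription factor Slug, which basal keratinocytes also make at wound edges. It read 9.28, 10.42, 9.99, 10.26 and 9.75 in skin and 11.15, 11.66 and 12.99 in the tumors (2.00 ± 0.36 SE, limma adjusted p = 0.000864). Zeb2 (-2.34), Prrx1 (-1.98), Zeb1 (-1.89) and Vim (-1.06) were lower. Like that of the fibroblast list, the list mean was lowest in RbΔEC; Trp53ΔEC tumor 8 (7.13) and highest in Trp53ΔEC tumor 4 (9.27), and the share of stromal cells in this difference was not tested. Of 23 junction genes 17 did not pass, among them Cdh1 (0.32, limma adjusted p = 0.307), 3 were higher (Dsc2 at 3.63, F11r and Pkp3) and 3 lower (Dsg1a at -2.22, Ocln and Ppl), and 5 were lower without RbΔEC; Trp53ΔEC tumor 8. Simple epithelial keratins did not rise as a group: of 9, 4 were lower (Krt23, Krt80, Krt19 and Krt20), and only Krt18 was higher (1.92, limma adjusted p = 0.0292), a call lost without normal skin 1, 3 or 5 or RbΔEC; Trp53ΔEC tumor 7.

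**Figure D3:**
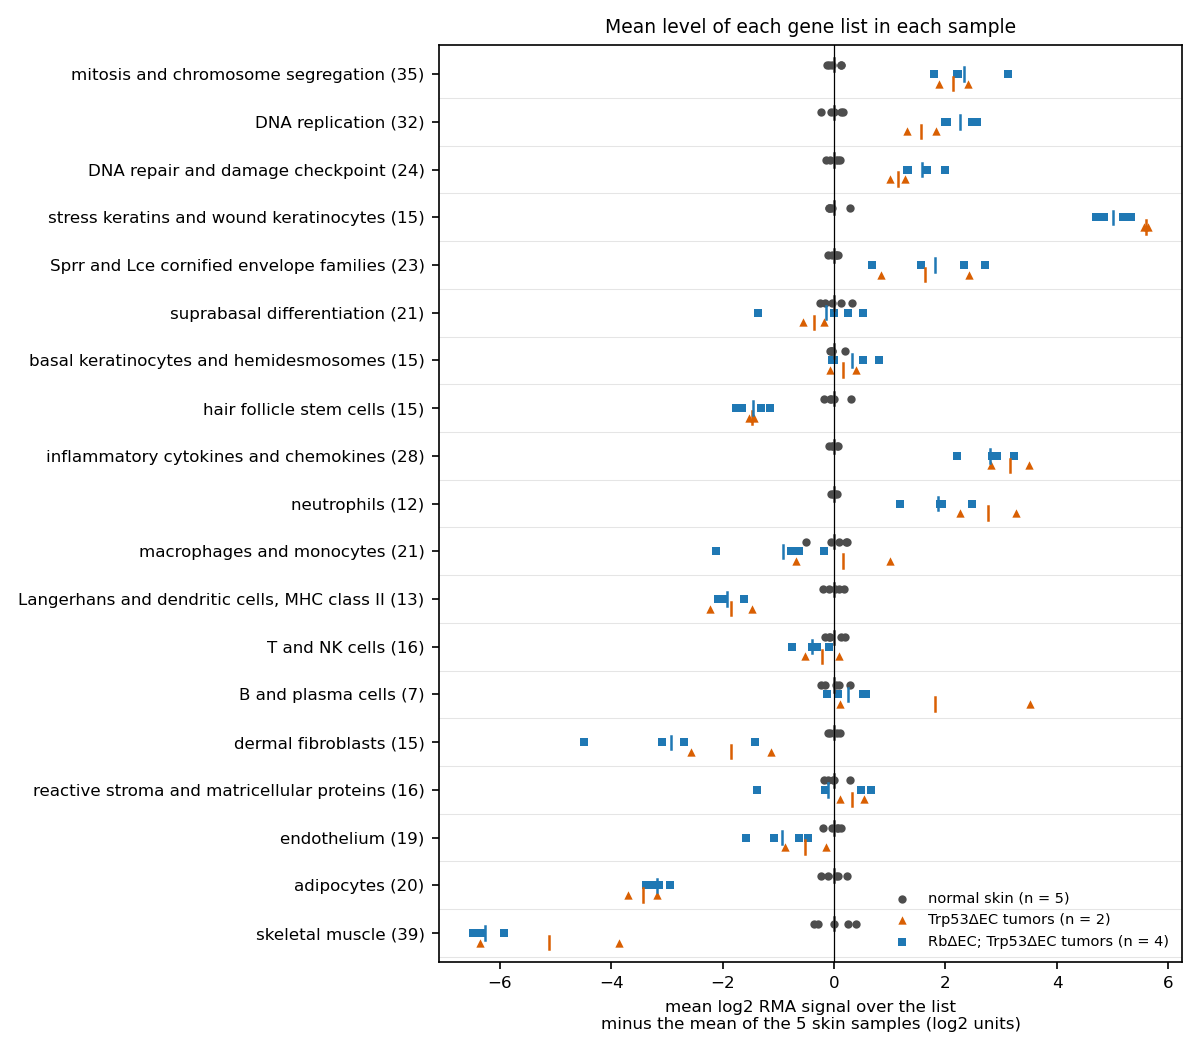
The mean log2 RMA signal over each gene list, with its number of measured genes in parentheses, minus the mean of the 5 skin samples (x axis, log2 units), with 1 point per sample and a short vertical line at the group mean. The wound keratin list lies highest and the skeletal muscle list lowest, where Trp53ΔEC tumor 4 is the triangle apart from the other tumors, as it is in the B and plasma cell list.

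Leukocyte genes did not move as a block. Of 12 neutrophil genes, 10 were higher and none lower (median 2.23), and the list mean was 4.95 to 5.07 in skin and 6.19 to 8.27 in tumors. Fpr2, a formyl peptide receptor, rose by 4.51, Trem1 by 3.57 and Csf3r, the receptor of Csf3, by 2.51. Mmp9, which tumor and stromal cells make too, rose by 3.85. Of 21 macrophage and monocyte genes, 5 were lower (Cd163, Ccr2, Adgre1, Csf1r and C1qc), Cd14 alone was higher (2.97, limma adjusted p = 7.09e-05) and 15 did not pass. A lower count of 5 of 21 is near the 22.0% of all genes that were lower. The macrophage counts also depended on which samples were included. Without Trp53ΔEC tumor 4 there were 9 lower and 2 higher, and without RbΔEC; Trp53ΔEC tumor 8 there were 3 lower and 4 higher, and the lower count was also 3 without normal skin 2, 3, 4 or 5, Trp53ΔEC tumor 6 or RbΔEC; Trp53ΔEC tumor 6 or 7. Of 13 genes of Langerhans and dendritic cells and MHC class II, 9 were lower and Itgax (1.07) was higher, a call lost without normal skin 4 (median -1.60). Mgl2, a lectin of dermal dendritic cells, read 10.62, 10.82, 10.49, 10.77 and 10.56 in skin and 4.97, 5.46 and 6.60 in the tumors (-5.01 ± 0.25 SE, limma adjusted p = 6.26e-08), and H2-Eb1, a chain of MHC class II, fell by 4.70. Of 16 T and NK cell genes, 4 were lower (Nkg7, Klrk1, Prf1 and Cd3e), again near the 22.0% of all genes, and 2 higher (Gzmb at 1.41 and Foxp3 at 0.47). Among 10 mast cell genes 3 were higher, Tpsab1 by 4.06, Hdc by 2.71 and Fcer1a by less, whereas Mcpt4 fell by 1.97 and Cpa3 by 1.88, a lower count that was 4 without RbΔEC; Trp53ΔEC tumor 2 and 1 without any of 8 other samples. None of 7 B and plasma cell genes and none of 4 red blood cell genes passed.

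Metabolic and growth genes changed in part. Of 25 genes of glycolysis and hypoxia, 16 were higher and 3 lower (Aldoa, P4ha2 and Bnip3), with a median of 0.90. Slc2a1, the glucose transporter GLUT1, read 9.35, 9.84, 9.40, 9.64 and 9.14 in skin and 11.81, 12.40 and 13.06 in the tumors (2.88 ± 0.23 SE, limma adjusted p = 2.06e-06), Egln3 rose by 2.45 and Vegfa by 2.08. Aldoa, the aldolase of muscle, fell by 1.33. Of 18 respiration genes, 12 were lower and none higher (median -0.46), led by Cox7a1 (-5.93) and Cox8b (-5.71), cytochrome oxidase subunits of muscle and fat, and the skeletal muscle list fell in the same tumors. All 18 ribosome biogenesis genes were higher (median 0.77), with Nop58 at 1.88 and Nop56 at 1.81. Among 11 genes of EGF ligands and receptors, 5 were higher and 3 lower. The ligands Hbegf (4.34), Epgn (3.69), Tgfa (2.11) and Ereg (1.43) and the receptor Met (1.45) rose, while the ligands Btc (-2.28) and Egf (-2.16) and the receptor Egfr (-1.43 ± 0.15 SE, limma adjusted p = 1.47e-05) fell, each of the last 3 with all tumors below all skin samples. Of 19 chromatin regulators, 8 were higher and 6 lower, with Hells at 3.93 and Uhrf1 at 2.49 on the one side and the Polycomb genes Cbx7 at -1.91 and Cbx6 at -1.66 on the other. Of 24 hair shaft and inner root sheath genes, 6 were higher, led by Krt27 (2.25), and 2 lower (Gata3 and Krt32). A higher count of 6 of 24 is near the 21.2% of all genes that were higher. Of 13 barrier lipid genes 4 were higher, led by Pnpla1 and Abca12 (1.48 each), and Smpd1 (-0.80) was lower, a call lost without any of 8 samples. Of 15 cell stress genes 5 were higher, with Junb at 2.10, and 2 lower (Hspb1 and Hsph1), counts that were 3 without normal skin 2 for the former and 1 without any of 8 samples for the latter. Of 8 housekeeping genes 4 were higher, Tbp by 1.10, Hprt by 0.91, Ywhaz and Actb. After centring the arrays Ywhaz (0.28) and Actb (0.26) did not pass. Without normal skin 2 Actb did not pass, and Ywhaz did not without that or any of 8 other samples.

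The 6 tumors differed more among themselves than the skin samples did. The median SD over genes was 0.28 among tumors and 0.19 in skin, 73.0% of genes had the larger SD among tumors, and 228 genes ranged over more than 4 log2 units among tumors against 20 in skin. The 10 genes of largest range were Chil4, Cd163, Myh1, Chil3, Ighm, Krt13, Igkv8-30, Ppbp, Fabp4 and Iglv1. Trp53ΔEC tumor 4 was the highest tumor for 8 of them. Ighm, the heavy chain of IgM, read 14.50 there and 6.93 to 10.04 in the other tumors, and over all 6 it differed from skin by 1.79, or by -2.27 when probesets that may cross-hybridize were left out, without passing the test as measured (limma adjusted p = 0.237). In the same tumor the plasma cell gene Mzb1 read 11.05, and it read 5.48 to 5.96 in the others. Chil4, a chitinase-like protein of alternatively activated macrophages, read 14.06 there, 10.03 in RbΔEC; Trp53ΔEC tumor 8 and 4.59 to 6.95 in the rest. Cd163, a scavenger receptor of resident macrophages, read 11.70 there, above all skin samples, and 3.66 and 4.40 in RbΔEC; Trp53ΔEC tumors 7 and 8, so that its fall of 3.35 (limma adjusted p = 0.0478) was lost without any of 9 of the 11 samples. Krt13, a keratin of lining mucosa and of advanced skin papillomas, read 10.98 in Trp53ΔEC tumor 4, 9.17 in RbΔEC; Trp53ΔEC tumor 6 and 3.57 to 5.26 in the others, against 3.47 to 3.91 in skin. Ppbp, a platelet chemokine, was highest in RbΔEC; Trp53ΔEC tumor 6 (12.32), as was Fabp4 (12.91), a fatty acid carrier of fat and vessels.

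Trp53ΔEC tumor 4 had the highest list mean of muscle (7.47), B and plasma cells (8.99, against 5.35 to 6.05), macrophages (10.50, against 7.38 to 9.32), neutrophils (8.27), fibroblasts and endothelium. RbΔEC; Trp53ΔEC tumor 8 had the lowest of muscle, fibroblasts, endothelium, macrophages, neutrophils and cytokines. Without Trp53ΔEC tumor 4, 3963 genes were higher and 4069 lower than in skin. Its median correlation distance to the other tumors, 0.0495, was the largest of the 6, next to 0.0463 for RbΔEC; Trp53ΔEC tumor 8.

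**Figure D4:**
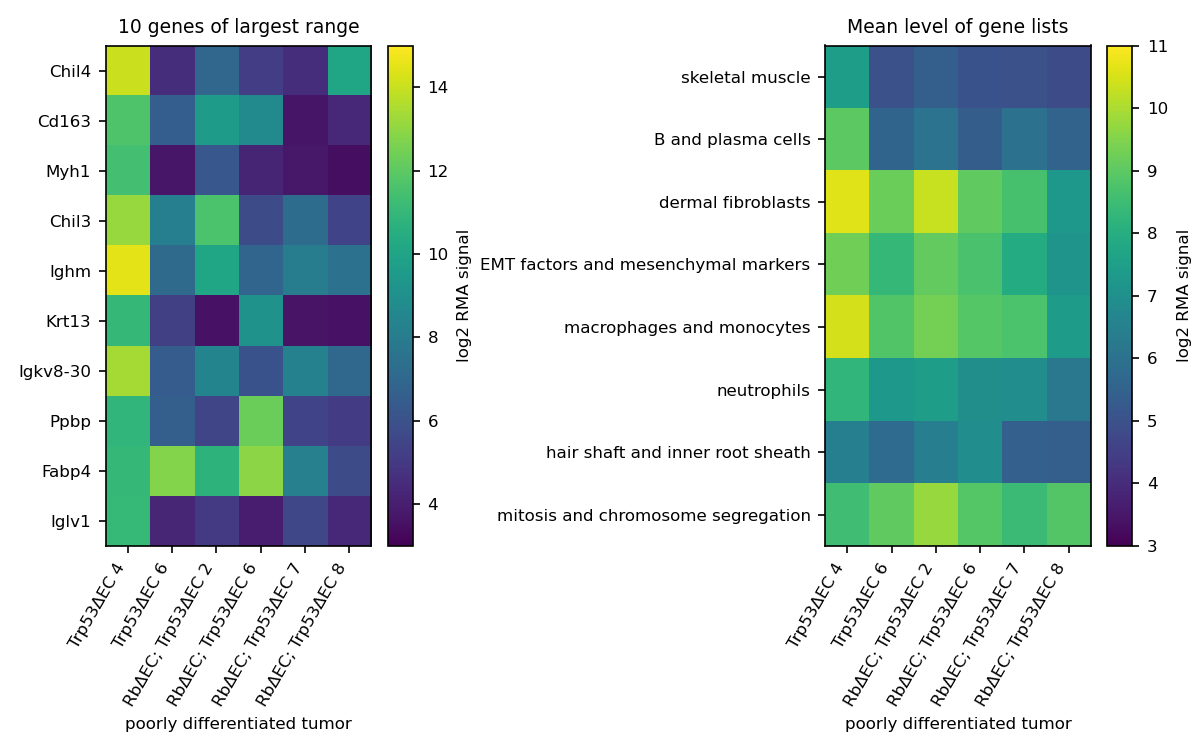
The log2 RMA signal (colour) of the 10 genes of largest range (left) and the mean signal of 8 gene lists (right) in each of the 6 poorly differentiated tumors, to be compared along a row and not between rows. Trp53ΔEC tumor 4 is brightest for Ighm (14.50) and Chil4 (14.06) and for the muscle, plasma cell and macrophage lists, and RbΔEC; Trp53ΔEC tumor 8 is darkest for fibroblasts (7.27).

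Between the 2 genotypes no gene passed limma's adjusted threshold (0 of 18193, 0.00%), the smallest adjusted p being 0.488. At an unadjusted p under 0.05, 623 genes were higher and 559 lower in the RbΔEC; Trp53ΔEC tumors, and the groups did not overlap for 2943 genes (16.2%). With 2 tumors against 4, many genes can separate by chance alone, and an exact permutation test cannot go below p = 0.0667. The counts were not tested against chance. The genes of smallest p included Dscc1, a factor that loads the replication clamp, at 4.97 and 5.28 in the Trp53ΔEC tumors and 6.77 to 7.47 in the others. Sprr2i read 11.01 and 11.37 in the former and 8.85 to 9.39 in the latter, and Igf2, a growth factor, 7.80 and 8.07 against 6.10 to 6.60. Of these, Dscc1 and Sprr2i were above skin in every tumor, and Igf2 did not differ from skin over the 6 tumors (limma adjusted p = 0.134).

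Set against the other carcinomas, the poorly differentiated tumors stood apart in suprabasal, cornified envelope and wound keratin genes and not in cell division. In a fit of all 20 arrays, 1895 genes were higher (10.4%) and 2476 lower (13.6%) than in the 5 undifferentiated and spindle cell carcinomas, and 2173 were higher (11.9%) and 2450 lower (13.5%) than in the 4 mixed carcinomas. These comparisons and that with skin share the 6 tumors, so they are given side by side. Of the 21 suprabasal genes 19 were higher than in either class, with medians of 4.88 and 4.75. Of the 23 Sprr and Lce genes 20 were higher than in either class, and of the 15 wound keratin and antimicrobial genes 14 were higher than in the first class and 13 than in the second. Of the 15 basal keratinocyte genes 12 and 8 were higher. The basal list mean of the mixed tumors, 6.99 to 10.95, overlapped the 10.71 to 11.59 of the poorly differentiated ones. Krt6b had mean levels of 14.27 in the poorly differentiated, 6.50 in the undifferentiated and spindle and 6.56 in the mixed tumors, and Trp63 was 6.91 higher than in the first class and 3.56 higher than in the second (limma adjusted p = 1.47e-05 and 0.0106). Of the 28 cytokines, 20 and 21 were higher, whereas Ccl2 and Ccl7 were lower than in the first class and Ccl27a lower than in the second. Of the 35 mitosis genes none was higher and 6 and 4 were lower, Ccna2 and Cenpf in either comparison, with medians of -0.43 and -0.36. Of the 12 transition genes 10 were lower than in the undifferentiated and spindle class (median -2.07) and none lower than in the mixed class, with Snai2 higher in both comparisons, by 1.51 and 1.67. Of 21 macrophage genes 12 were lower than in the former, and in the latter comparison 5 were higher and Cx3cr1 was lower. The muscle list did not separate the tumor classes, with Casq2 higher and Eno3 lower in the former comparison and no call in the latter.

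**Figure D5:**
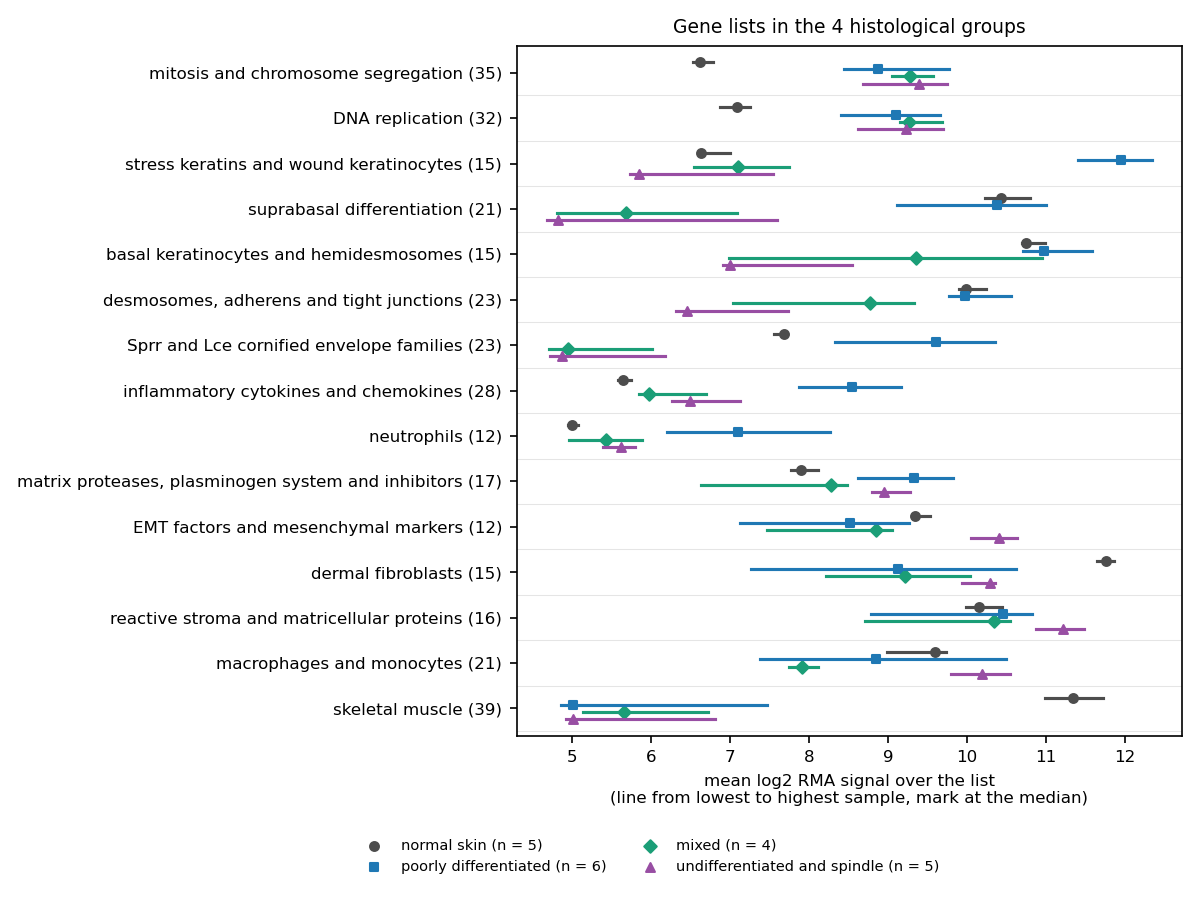
The mean log2 RMA signal over each gene list (x axis) in normal skin, poorly differentiated, mixed and undifferentiated or spindle cell samples, as a line from the lowest to the highest sample with a mark at the median. The poorly differentiated tumors overlap the other carcinomas in the mitosis list (8.45 to 9.77) and lie above them in the wound keratin list (11.40 to 12.34).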

How the data were processed

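The deposited values are log2 signals of 45101 probesets that the authors made with RMA, per the labels, which name no version. They were used without further scaling. After removal of 64 control probesets, 45037 remained, of which 34945 had 1 gene symbol, 932 several and 9160 none in the platform annotation. Each of the 18193 genes was represented by the probeset with the highest mean over the 20 arrays, and levels of different probesets were not set against each other. Trp53 had no probeset among those with 1 symbol and was not analysed here.

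The 6 poorly differentiated tumors and 5 skin samples were compared with limma 3.58.1 in R 4.3.3 (lmFit and eBayes), with Benjamini-Hochberg adjustment over all genes and a call at an adjusted p below 0.05. The genotypes were compared among the 6 tumors, and the other tumor classes in a fit of all 20 arrays with 4 groups. Array number limits the precision. Named genes are the 10 largest rises and falls among genes whose groups did not overlap, up to 4 members of each of 42 lists, the 10 of largest range among the tumors and 5 each way between genotypes, and other list members were named after their values were seen. The members, lists and tests were chosen with earlier results of these data known. Alternatives were the normalization, the probeset of a gene, a filter on dim genes, the samples in the fit, the genotype of the tumors, the test and leaving out each sample. Promoters were RefSeq windows of build GRCm38.p6 searched in Python 3.11.15.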

Additional observations from a re-analysis of the deposited data

Results flagged for a closer look

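Of 372 groups of samples of the named genes, 24 held a sample far from the others of its group by Dixon's ratio. Chance alone would flag about 1 in 20 groups if the groups were independent and chosen beforehand. They were not: 10 of the named genes, among them Myh1, Igkv8-30 and Iglv1, were picked for their range among these tumors. Several named genes also vary together, and the number flagged was not tested against chance. RbΔEC; Trp53ΔEC tumor 2 stood apart for Ifit3 at 7.97 (median of the others 6.19) and Usp18 at 8.02 (median of the others 6.30). RbΔEC; Trp53ΔEC tumor 7 stood apart for Krt6b at 13.57 (median of the others 14.39). Trp53ΔEC tumor 4 stood apart for Tnnt3 at 8.97 (median of the others 4.72), Myh1 at 11.40 (median of the others 3.79), Myl1 at 9.76 (median of the others 5.07), Rad18 at 7.23 (median of the others 7.86), Mzb1 at 11.05 (median of the others 5.64), Cox8b at 7.50 (median of the others 5.28), Igkv8-30 at 13.38 (median of the others 7.03) and Iglv1 at 11.05 (median of the others 4.33). Normal skin 1 stood apart for Cers3 at 8.57 (median of the others 8.05), Gata3 at 9.35 (median of the others 10.05), Pck1 at 7.75 (median of the others 10.13), Mlana at 8.72 (median of the others 5.82), Hba-a2 at 4.93 (median of the others 4.31), Ankrd29 at 8.12 (median of the others 6.82) and Laptm4a at 12.69 (median of the others 11.49). Normal skin 2 stood apart for S100b at 6.95 (median of the others 6.37) and Iglv1 at 6.34 (median of the others 4.15). Normal skin 4 stood apart for Lama3 at 9.49 (median of the others 8.61), Krt80 at 11.37 (median of the others 11.10), Hspb1 at 14.02 (median of the others 13.68) and Chil3 at 4.74 (median of the others 3.64). Trp53ΔEC tumor 4 was the sample that stood apart for 8 of them, among which Myh1, Myl1, Tnnt3 and Cox8b belong to muscle or to muscle mitochondria and Mzb1, Igkv8-30 and Iglv1 to plasma cells.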

How the results depend on the processing

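Leaving out each sample in turn gave 3287 to 3963 genes higher and 3526 to 4069 lower than in skin, 2680 to 2995 and 2752 to 2994 genes whose groups did not overlap, 262 to 281 list members higher and 174 to 206 lower, and 0 to 7 genes called between genotypes, 7 of them without Trp53ΔEC tumor 6 and 1 without tumor 4. With only genes above the median level, fewer genes were tested and 2211 were lower than in skin. The cause of this smaller count was not tested. With only the 2 Trp53ΔEC tumors, 4255 and 4264 genes did not overlap, which fewer samples allow. Between genotypes, 13 genes were called with the 11 arrays in 3 groups, and against mixed carcinomas 1265 were higher and 1344 lower with only those classes in the fit; the cause was not tested. Of 186 named genes, the direction was opposite for Mbp (0.78) and Ighm (-2.27) without probesets that may cross-hybridize, and for Ttc30b (0.47) with only the RbΔEC; Trp53ΔEC tumors; the cause was not tested. Calls of the named genes were lost for 16 with only the Trp53ΔEC tumors, 11 with all arrays in 1 fit, 10 with the methods' t-test, 4 with the mean of a gene's probesets and 2 after centring. The study's methods used a much lower threshold, an adjusted p under 3e-07, with a second criterion, on probesets of 15 tumors against 5 skin samples. At that threshold, with 6 tumors and 1 probeset per gene, the t-test, here in Welch's form, called 1 gene higher and 2 lower. Limma called 28 and 112. With unlike samples and criteria, these counts cannot be set against those of the study. No paired analysis was possible because the numbers of skin samples and tumors are only names and tie no skin sample to a tumor.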
